A study of Rattus norvegicus with 4 samples.

Results

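The nucleosome maps of sperm from rats treated with cyproterone acetate and from rats treated with tamoxifen were compared directly on chromosome 2 (build rn6), without the controls as a reference. The comparison takes 2 of the 4 libraries of the series, 1 for each drug. Its positions are those whose centres lie within 10 bp of each other in the tables of both drugs, which held for 279161 of the 969963 positions called in the cyproterone acetate table and of the 895443 called in the tamoxifen table. Its regions are 2591 windows of 100 kb, of 2665 along the chromosome, that held at least 20 positions in each table and 100 reads in both libraries together.

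All animals were adult male Holtzman rats, 75 days old per the labels. Cyproterone acetate was given by mouth at 20 mg per kg per day for 60 days, tamoxifen by mouth at 0.4 mg per kg per day for 60 days, and both drugs were dissolved in water, which the controls received alone. The doses differ, so the libraries differ in drug and in dose together. The labels allocate 6 animals to each group and do not say how many gave sperm to a library. Spermatozoa came from the cauda of the epididymis and were treated with dithiothreitol, and microscope fields were inspected for round cells. The tables hold no expression values, so the cell type could not be checked against markers.

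During the last stage of sperm formation most histones give way to protamines, small basic proteins that pack DNA far more tightly, and a minor part of the genome keeps nucleosomes. Micrococcal nuclease cuts DNA that is not wrapped around histones or otherwise shielded, so fragments of about 150 bp mark retained nucleosomes. Cyproterone acetate is a steroid that blocks the androgen receptor and also acts as a progestogen. Tamoxifen is a nonsteroidal modulator of the estrogen receptors, which it blocks in some tissues and activates in others. Androgens and estrogens both act on the testis and the epididymis, where sperm form and mature.

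Occupancy is given here as summit reads, the read coverage at the summit of a called position. On chromosome 2 the cyproterone acetate library held 1563294.5 summit reads and the tamoxifen library 1311684.5, in steps of 0.5 reads as the coverage was deposited. The control libraries, called the shallower and the deeper since the tables do not tell which replicate is which, held 1067555 and 1170574. The ratios below divide each library by its own total on the chromosome, and shares are given as RPM, reads per 1000000 summit reads of the library on the chromosome. They compare shares of a library and not absolute amounts of retained nucleosomes. With 1 library for each drug there is no replicate check and no test of the difference between drugs. The counting intervals given are exact 95% intervals of the split of reads between the libraries and cover no error but that of counting; reads copied by PCR could not be told from separate molecules. The difference between the 2 controls, computed in the same way, is given as the spread between libraries of like treatment.

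At the scale of single nucleosomes the maps overlapped in part. The matched positions made up 28.8% of the positions called for cyproterone acetate and 31.2% of those called for tamoxifen. Both sets include positions called from the pooled controls. Of positions with the drug's own reads, 15.7% for cyproterone acetate and 17.9% for tamoxifen were matched with reads of both. Of the 279161 matched positions, 125550 held reads of both libraries, 47923 held reads of cyproterone acetate alone, 38948 held reads of tamoxifen alone, and 66740 had been called from the pooled controls in both tables and held reads of neither. Positions shared by both drugs carried 18.1% of all cyproterone acetate reads and 20.2% of all tamoxifen reads. The mean was 2.26 cyproterone acetate reads and 2.11 tamoxifen reads at a shared position, against 1.82 and 1.76 where only that drug's library had reads. Among matched positions, 14 with reads of cyproterone acetate alone and 5 with reads of tamoxifen alone held 10 reads or more. The highest of them held 12.5 and 12. These counts cannot show how many strong positions were private to 1 drug, since a position without a match cannot enter them. Of the positions with 10 reads or more, 1206 of 2229 with cyproterone acetate and 942 of 1666 with tamoxifen had a match.

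The tolerance decided how many positions were matched. With identical centres 126601 positions were matched, within 20 bp 414570 and within 50 bp 669226. The last is 69.0% of the positions called for cyproterone acetate and 74.7% of those called for tamoxifen. The median distance between neighbouring positions was 185 bp in the cyproterone acetate table and 195 bp in the tamoxifen table. A tolerance of 50 bp is therefore a large part of the space between neighbours.

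Where both libraries had reads at a matched position, the read numbers were low, with a median of 2 in each library. The median log2 ratio of cyproterone acetate over tamoxifen was -0.25, which is the value of equal read numbers after division by the depths. At least 2-fold higher with cyproterone acetate were 16440 positions (13.1%) and at least 2-fold higher with tamoxifen were 29998 (23.9%). After division by the depths, 2 reads against 1 fall short of 2-fold for the deeper library and pass it for the shallower one. Scaled to equal medians, the shares were 28.6% and 23.5% and leaned to cyproterone acetate. The control pair also leaned to its shallower library, with 25.8% higher in the shallower control and 10.6% higher in the deeper. At the 4006 matched positions with 10 reads or more in both libraries together, 14.9% were 2-fold higher with cyproterone acetate and 15.2% with tamoxifen. At the 902 with 20 reads or more the median was -0.34, and 5.43% were 2-fold higher with cyproterone acetate against 17.7% with tamoxifen. Across the 125550 positions, which are not independent replicates, Pearson's r of the log2 read numbers was 0.25, against 0.15 over the 364707 positions of the control table with reads in both controls. Those positions were called jointly for both controls and those of the drugs in separate tables.

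In windows of 100 kb the libraries were much alike. The log2 ratio of cyproterone acetate over tamoxifen had a standard deviation (SD) of 0.125 over the 2591 windows, where counting alone gives 0.095. The control pair had an SD of 0.122, where counting alone gives 0.106. The counting interval excluded 0 in 336 windows (13.0%) for the drugs, whose libraries were deeper, and in 206 (7.95%) for the control pair. A typical window held 605 cyproterone acetate reads and 505 tamoxifen reads (medians), and 90% of the windows lay between -0.18 and 0.22. Read numbers of the windows had a Pearson's r of 0.98 between the drugs and of 0.97 between the controls, as a description over windows of 1 library each.

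The tails of the window ratios were unequal. At least 25% higher with cyproterone acetate were 34 windows, 1.31% of those compared, and at least 25% higher with tamoxifen were 5 windows, 0.193%. In the control pair 11 windows (0.425%) passed the same fold toward the shallower control and 19 (0.733%) toward the deeper. Of the 34 windows, 22 lay in the decile of windows with the fewest control reads, as did 3 of the 5 higher with tamoxifen. The 34 had a median of 232.5 control reads and the 5 a median of 548, against 887.5 over all windows. In that decile the SD of the log2 ratio was 0.19 for the drugs and 0.19 for the control pair. Among the 2527 windows with at least 300 reads, 17 passed toward cyproterone acetate and 4 toward tamoxifen. When no position was allowed to count for more than 3 reads, a few strong positions could not carry a window. With this limit 23 windows (0.888%) passed toward cyproterone acetate and 1 (0.039%) toward tamoxifen. In the control pair 8 (0.309%) then passed toward the shallower control and 14 (0.540%) toward the deeper. Of the 34 windows 17 still passed, and of the 5 higher with tamoxifen 1. With all reads the counting interval excluded 0 in 28 of the 34 and in 4 of the 5. Over matched positions alone, which hold a minor part of the reads, the tails were near equal, with 148 and 152 windows and an SD of 0.219.

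**Figure D1:**
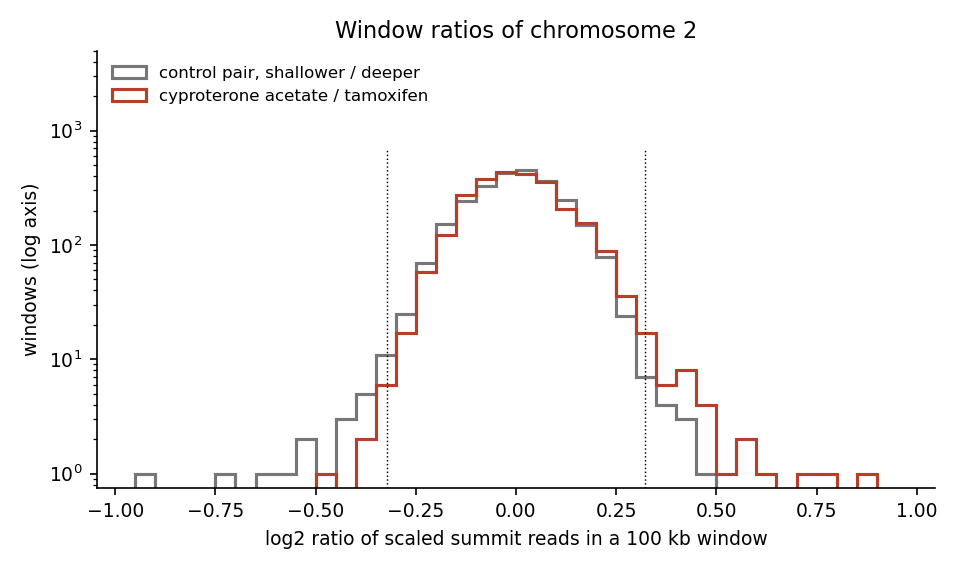
Histogram of the log2 ratio of scaled summit reads over 2591 windows of 100 kb, cyproterone acetate over tamoxifen (red) and shallower over deeper control (grey), with the number of windows on a log axis and dotted lines where one library is 25% higher. The bulk of both histograms coincides, and the red one has 34 windows beyond the right line and 5 beyond the left.

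The windows with the highest ratios gathered in a stretch poor in control reads. Taking called windows together when they lay at most 5 windows apart, a grouping chosen after the values were seen, 11 of the 34 fell in chr2:160600001-163100000 and 3 in chr2:196700001-197400000. The 5 windows higher with tamoxifen each stood alone. The largest such group in the control pair held 3, at chr2:163000001-163400000, which overlaps the end of the first group. The control pair thus varied there too. Its log2 ratio was -0.10, -0.02, 0.11 and -0.15 in the 1 Mb bins from chr2:160000001, chr2:161000001, chr2:162000001 and chr2:163000001, the last being its lowest of the chromosome. Over the 2.5 Mb of the first group the cyproterone acetate library held 4855 RPM, the tamoxifen library 3973, the shallower control 4122 and the deeper 4245. Cyproterone acetate was thus above both controls there and tamoxifen below both. The ratio was 1.22-fold (log2 0.29, counting interval 0.24 to 0.34) and the control pair differed by a log2 of -0.04. The stretch was drawn around windows high with cyproterone acetate, so this ratio is a description. With at most 3 reads a position the log2 ratio fell to 0.15, so strong positions carried part of it.

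Window chr2:160800001-160900000 had the highest ratio of the chromosome. It held 1071.5 cyproterone acetate reads, 487 tamoxifen reads, and 313.5 and 524 reads of the shallower and the deeper control, which is 685 RPM with cyproterone acetate against 371 with tamoxifen, 294 and 448. The log2 ratio was 0.88 (counting interval 0.73 to 1.04), or 1.85-fold, and the controls differed by -0.61 in the same window. Cyproterone acetate was therefore above the other libraries, and tamoxifen lay between the controls. The 5 strongest positions held 33.6% of its cyproterone acetate reads and 31.8% of its tamoxifen reads, and with at most 3 reads a position the log2 ratio was 0.40.

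The next window, chr2:160900001-161000000, held far fewer reads: 133.5 from cyproterone acetate, 66 from tamoxifen, 62 and 57.5 from the controls. Its log2 ratio of 0.76 (counting interval 0.33 to 1.21) went to 0.62 with at most 3 reads a position, and the cyproterone acetate share was above the other libraries. It was the highest too in chr2:197300001-197400000, with 126 cyproterone acetate reads, 64.5 tamoxifen reads, 43.5 and 61.5 control reads, a log2 ratio of 0.71 (0.27 to 1.17) and 0.50 at most 3 reads a position. Over matched positions alone this window's log2 ratio was 0.01.

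Ranks 4 to 7 were chr2:160600001-160700000, chr2:158800001-158900000, chr2:162000001-162100000 and chr2:162800001-162900000. Their log2 ratios ran from 0.63 down to 0.51, with 201.5 to 74.5 cyproterone acetate reads and 109 to 42 tamoxifen reads. In all 4 the tamoxifen share was below the share of at least 1 control. In chr2:162000001-162100000 cyproterone acetate, at 47.7 RPM, was close to the controls at 46.4 and 44.8, and tamoxifen was lower at 32.0. By the rule with at most 3 reads a position, chr2:161400001-161500000 was added, where cyproterone acetate (113 RPM) lay beside the controls (107 and 113) and tamoxifen was again lower (84.6), for a log2 ratio of 0.41 with all reads and 0.49 with the limit. The ratio in the stretch thus came from a higher cyproterone acetate share in some windows and from a lower tamoxifen share in others.

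The eighth window, chr2:1300001-1400000, was of another kind. It held 1546.5 cyproterone acetate reads, 935 tamoxifen reads, and 439 and 536 control reads, so both drugs were above both controls. Its control reads ranked above those of 67.5% of the windows. The log2 ratio was 0.47 (0.35 to 0.59) with all reads and 0.17 with at most 3 reads a position. A mean of 6.44 cyproterone acetate and 4.82 tamoxifen reads fell on each of its positions with reads, against 1.96 and 1.87 over the chromosome. The position in it with the most tamoxifen reads went the other way, as given below with the strong positions.

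The lowest ratios were smaller in size and spread along the chromosome. Window chr2:87500001-87600000 had the lowest, with 51.5 cyproterone acetate reads against 60 with tamoxifen and 38 and 46.5 in the controls, a log2 ratio of -0.47 whose counting interval reached from -1.04 to 0.09. Window chr2:122600001-122700000 followed with 217 against 236 reads, 166 and 169.5 control reads, and a log2 ratio of -0.37 (-0.65 to -0.10). In RPM the controls (155 and 145) lay between cyproterone acetate (139) and tamoxifen (180) there.

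Ranks 3 to 8 were chr2:178100001-178200000, chr2:129200001-129300000, chr2:139400001-139500000, chr2:140200001-140300000, chr2:44000001-44100000 and chr2:104600001-104700000, with log2 ratios of -0.36 to -0.30, and chr2:113700001-113800000 was added by the rule with at most 3 reads a position. Of these 7 windows, 6 kept a log2 ratio between -0.24 and -0.32 with the limit on strong positions and held 343.5 to 695 cyproterone acetate reads. Over matched positions alone 3 of the 6 moved toward 0: chr2:140200001-140300000 to -0.10, chr2:104600001-104700000 to -0.07 and chr2:113700001-113800000 to -0.01. The seventh, chr2:44000001-44100000, held 65 cyproterone acetate reads, had a counting interval of -0.82 to 0.21 and a control pair apart by -0.59. Few strong positions were involved: in 4 of the 7 windows the 5 strongest positions held under 7% of the reads of either library.

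The ratio moved with the number of control reads in a window. These reads were taken as a measure of nucleosome density, and how well each window can be mapped was not checked. In the 3 deciles of windows with the fewest control reads the median log2 ratio was 0.04, 0.04 and 0.04, and from there it went down to -0.06 in the fullest decile. With at most 3 reads a position it went from 0.04 in the sparsest decile to -0.07 in the fullest. The control pair lay between -0.02 and 0.02 in every decile and was at 0.02 at both ends. In shares of a library, the sparsest decile held 4.54% of the summit reads with cyproterone acetate and 4.38% with tamoxifen, and the fullest decile 13.9% and 14.3%. Relative to cyproterone acetate, tamoxifen reads thus lay more in windows rich in control reads. The difference is small beside the spread of single windows, whose SD was 0.19 in the sparsest decile and 0.10 in the fullest. Across windows Pearson's r between the log2 ratio and the control reads was -0.25, and for the control pair, which shares its reads with that measure, 0.03.

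Depth and calling differed between the drugs as well, and their part in this pattern was not tested. The cyproterone acetate library was the deeper and its table held more positions. The same pooled controls, read at the positions of each table, differed between the tables by a window SD of 0.022, with medians from 0.006 in the sparsest decile to -0.005 in the fullest, and this difference had an r of 0.29 with the ratio of the drugs. Taking it off each window left an SD of 0.121, with 31 windows toward cyproterone acetate and 3 toward tamoxifen. Among the named windows it was largest at chr2:158800001-158900000 (0.10) and chr2:160600001-160700000 (0.09). Taking it off lowered their log2 ratios from 0.60 to 0.50 and from 0.63 to 0.54. The difference of the median log2 ratio between the sparsest and the fullest decile was 0.09 over all positions, 0.10 after this step and 0.03 over matched positions alone.

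**Figure D2:**
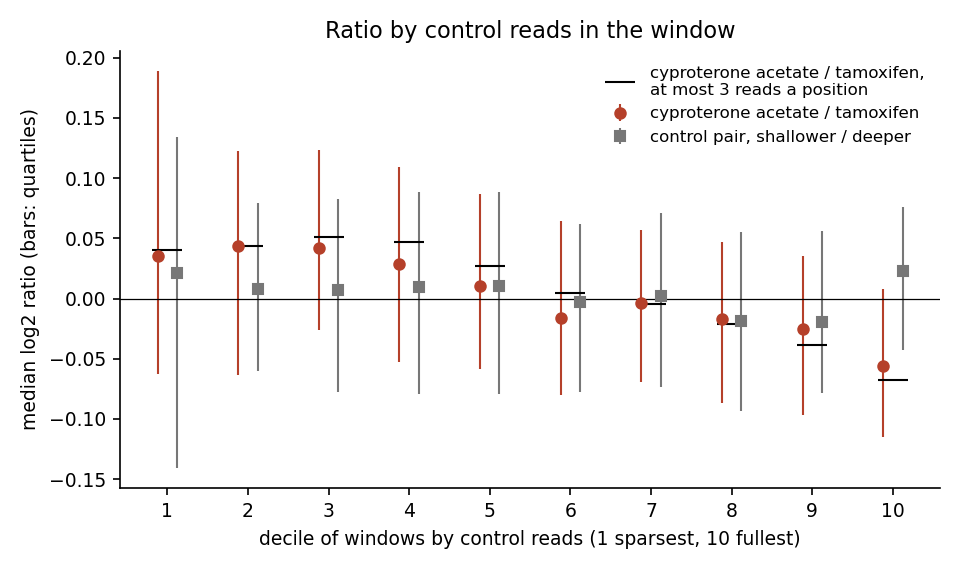
Median log2 ratio (points) and quartiles (bars) of 100 kb windows in deciles by control reads, for cyproterone acetate over tamoxifen (red), the same with at most 3 reads a position (black dashes) and the control pair (grey). The red medians go from 0.04 in the sparsest decile to -0.06 in the fullest, and the grey medians stay between -0.02 and 0.02.

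Neighbouring windows shared their ratio more than in the controls. Pearson's r between windows next to each other was 0.22 for the drugs and 0.05 for the control pair, and between windows 10 apart it was 0.12 and 0.01. The pairs are not on a like footing. Counting alone gives an SD of 0.106 of the 0.122 of the shallower control libraries, and 0.095 of the 0.125 of the drugs. Its part in the gap between these r values was not tested. In 267 bins of 1 Mb the SD of the log2 ratio was 0.067 for the drugs, 0.062 with at most 3 reads a position, and 0.046 for the control pair. Bins of 5 Mb gave 0.040 and 0.026. The highest bin of each size lay at the stretch poor in control reads described above: 0.49 for the bin of 1 Mb from chr2:160000001 and 0.14 for the bin of 5 Mb from the same start. With at most 3 reads a position these were 0.23 and 0.07, and the 5 Mb bins from chr2:65000001 and chr2:70000001 were then higher, at 0.11 and 0.13.

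The longest run of 1 Mb bins on 1 side of 0 covered 13 bins, chr2:63000001-76000000, all higher with cyproterone acetate, with log2 ratios from 0.01 to 0.21. It held 66192 cyproterone acetate reads and 51862.5 tamoxifen reads, a log2 ratio of 0.10 (counting interval 0.08 to 0.12), or 1.07-fold. The control pair differed by 0.01 over the same bins, and its own longest run had 11. In shares the cyproterone acetate library held 42341 RPM in it, the tamoxifen library 39539, the shallower control 43229 and the deeper 42799. Both drugs were thus below both controls, with cyproterone acetate nearer to them and tamoxifen the lowest of all. With at most 3 reads a position the log2 ratio was 0.11, so it did not rest on strong positions. The run was chosen for bins above 0, so its sign is no sign of stability. Windows of the run held fewer control reads than those of the whole chromosome, with a median of 757.

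The longest run in the other direction covered 12 bins, chr2:178000001-190000000, with log2 ratios from -0.05 to -0.02 in the bins and -0.04 (-0.05 to -0.02) over the whole. Both drugs held larger shares of their reads there than the controls did: 55050 RPM with cyproterone acetate and 56463 with tamoxifen, against 52454 and 52992. The control pair differed by -0.01. Its windows had a median of 1011.5 control reads, more than the chromosome's 887.5.

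**Figure D3:**
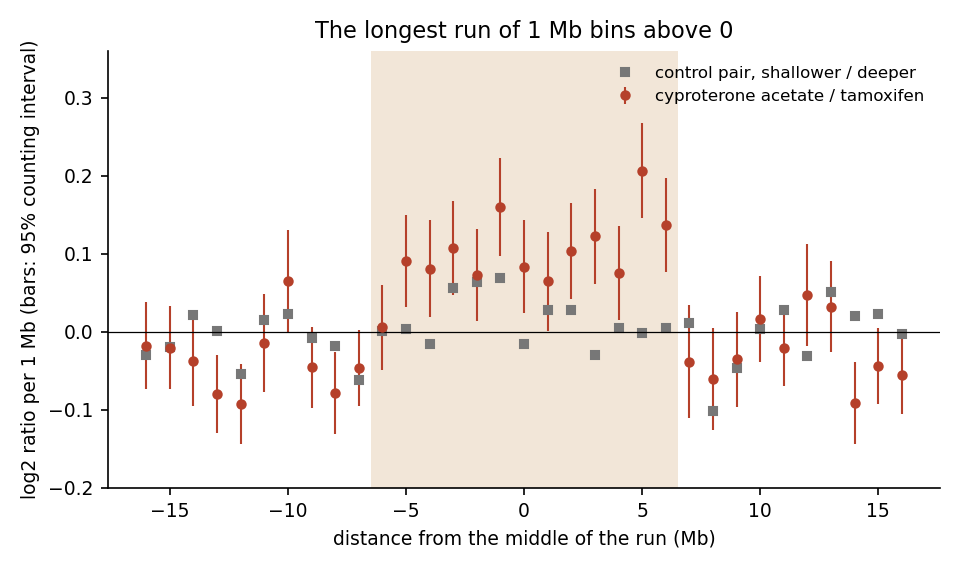
Log2 ratio of 1 Mb bins against the distance in Mb from the middle of the longest run above 0 (shaded), for cyproterone acetate over tamoxifen (red, bars are 95% counting intervals) and the control pair (grey). The 13 red points in the shaded run reach 0.21; the run was chosen for red points above 0, so their sign is given by that choice.

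At strong positions the libraries differed in how their reads were distributed. Both drugs put a larger share of reads at positions with 10 reads or more than the controls did: 2.23% with cyproterone acetate and 2.17% with tamoxifen, against 0.777% and 0.414%. The same number of reads is a smaller share of a deeper library, and both drug libraries were deeper than the controls. Limits at equal shares are given below. At 20 reads or more tamoxifen held more, 0.898% against 0.665%, and at 50 or more cyproterone acetate did, 0.240% against 0.175%. At 100 or more reads there were 15 positions with cyproterone acetate (0.116% of its reads) and 3 with tamoxifen (0.030%), and none in the controls. Between 20 and 50 reads tamoxifen had 353 positions and cyproterone acetate 253, although the cyproterone acetate library was deeper. Around these positions the other library was mostly strong too: within 50 bp of 86.7% of the 353 tamoxifen positions and of 83.4% of the 253 cyproterone acetate positions the other library had a position with 10 reads or more.

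At equal shares of the library, 7.62 RPM, 1338 positions passed with cyproterone acetate and 1666 with tamoxifen, and at 15.2 RPM 172 and 385. The controls had 1322 and 576 at the first level and 74 and 50 at the second. Tamoxifen was thus above the other libraries at both levels. Cyproterone acetate stood beside the shallower control at the first level and above both controls at the second.

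**Figure D4:**
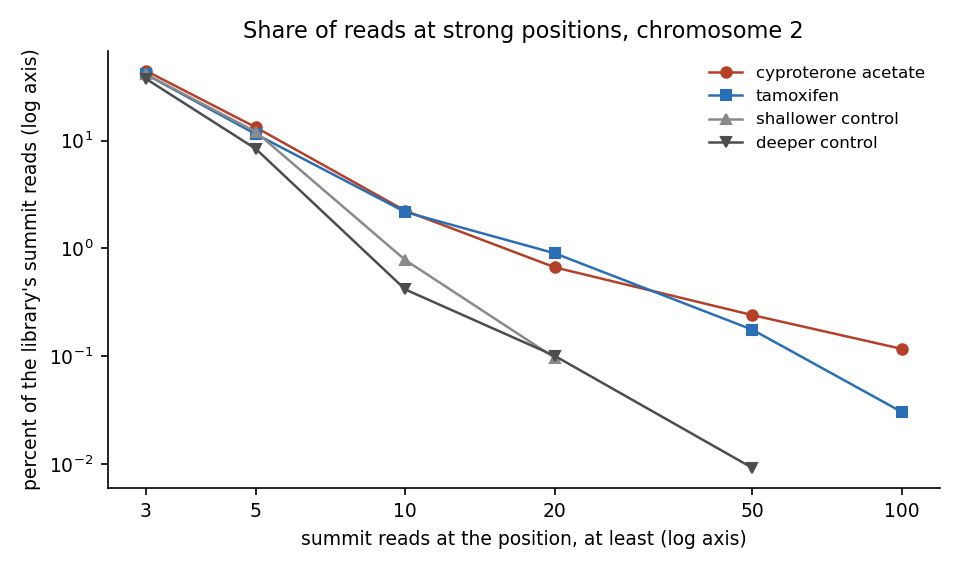
Percent of each library's summit reads on chromosome 2 that lie at positions with at least the number of reads on the x axis, both axes on a log scale; a library with none is not drawn at that number. Both drugs lie above both controls from 10 reads on, tamoxifen is the higher of the drugs at 20 reads and cyproterone acetate at 50 and 100. The same number of reads is a smaller share of a deeper library, and the drug libraries are deeper than the controls.

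Strong positions were partly shared. Of 2229 positions with 10 reads or more with cyproterone acetate and 1666 with tamoxifen, 649 were strong in both within 10 bp, which is 29.1% and 39.0%. Within 50 bp there were 931, 41.8% and 55.9%. Among the controls' 659 and 347 jointly called positions, 138 were strong in both, 20.9% and 39.8%. At the 649 positions the median log2 ratio was -0.34, and 11 were at least 2-fold higher with cyproterone acetate against 71 with tamoxifen. A limit of 10 reads is a larger share of the shallower library. With the limit at equal shares, 557 positions remained with a median of -0.30, of which 11 were 2-fold higher with cyproterone acetate and 51 with tamoxifen. At higher limits the counts did not lean that way: with 20 reads or more in both, 142 positions had a median of -0.32, with 5 at least 2-fold higher for cyproterone acetate and 4 for tamoxifen, and at 15.2 RPM in both, 93 positions had a median of -0.09, with 5 and 0.

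The strongest positions came in clusters. Positions with 50 reads or more in either library, 43 with cyproterone acetate and 32 with tamoxifen, fell into 14 clusters when joined at up to 5 kb, and the 8 clusters with at least 3 such positions, those of both libraries added up, held 40 and 27 of them. Reads were then summed over each cluster, so that matching played no part. Together the 14 clusters took up 0.311% of all summit reads for cyproterone acetate, 0.249% for tamoxifen, and 0.098% and 0.121% of those of the controls. The clusters are numbered in order along the chromosome. They were chosen by reads of the drug libraries and not of the controls. Their ratios, and their drug shares beside those of the controls, are therefore a description.

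Cyproterone acetate was the higher drug in most of the large clusters. Cluster 5, chr2:49358172-49365777, held 1127.5 cyproterone acetate reads, 668.5 tamoxifen reads and 271.5 and 371 control reads, a log2 ratio of 0.50 (counting interval 0.36 to 0.64). Cluster 7, chr2:160885572-160891712, held 727 against 329.5 reads and 210 and 332 in the controls, a log2 ratio of 0.89 (0.70 to 1.08). It lies in the window with the highest ratio of the chromosome, and tamoxifen, at 251 RPM, was between the controls there at 197 and 284.

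Cluster 11, chr2:197138052-197141112, held 898 against 441 reads and 132.5 and 171 in the controls, a log2 ratio of 0.77 (0.61 to 0.94). Cluster 6, chr2:156860412-156861152, held 513 against 283.5 reads and 103.5 and 118.5, a log2 ratio of 0.60 (0.39 to 0.82). In clusters 5, 6 and 11 both drugs were above both controls in RPM.

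Cluster 9, chr2:193572132-193573392, was the exception among the large clusters. It held 815 cyproterone acetate reads, 821.5 tamoxifen reads, and 141.5 and 112 control reads, a log2 ratio of -0.26 (-0.41 to -0.12). At 521 and 626 RPM both drugs were far above the controls at 133 and 95.7. The highest single position of each drug lies in it. Clusters 4 and 10, chr2:49293152-49293707 and chr2:197079702-197080567, had log2 ratios of 0.30 and 0.28 with counting intervals that took in 0 (-0.0019 to 0.61 and -0.12 to 0.68), and in cluster 10 the controls, at 55.7 and 122 RPM, lay on either side of the drugs.

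The small clusters leaned to tamoxifen. Clusters 1, 2, 8, 12, 13 and 14, of 1 or 2 positions each, had log2 ratios from -0.54 to -0.88, with 37 to 89 cyproterone acetate reads and 56 to 108.5 tamoxifen reads, and at most 17 reads in either control. Cluster 3, chr2:6095387-6095587, was a single position with 72 cyproterone acetate reads, 21 tamoxifen reads and 7 and 3 control reads. Clusters 1, 8 and 12 had a position of 50 reads with tamoxifen only, and clusters 3 and 7 with cyproterone acetate only. Clusters 1, 8 and 12 thus entered the list through tamoxifen alone, as clusters 3 and 7 did through cyproterone acetate. A limit of 50 reads is also a larger share of the shallower tamoxifen library. The lean of the small clusters therefore cannot be told apart from the choice. In 12 of the 14 clusters both drugs were above both controls in RPM, and clusters 7 and 10 were the exceptions. Since the clusters were chosen for high drug reads, this count is given by the choice in part.

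**Figure D5:**
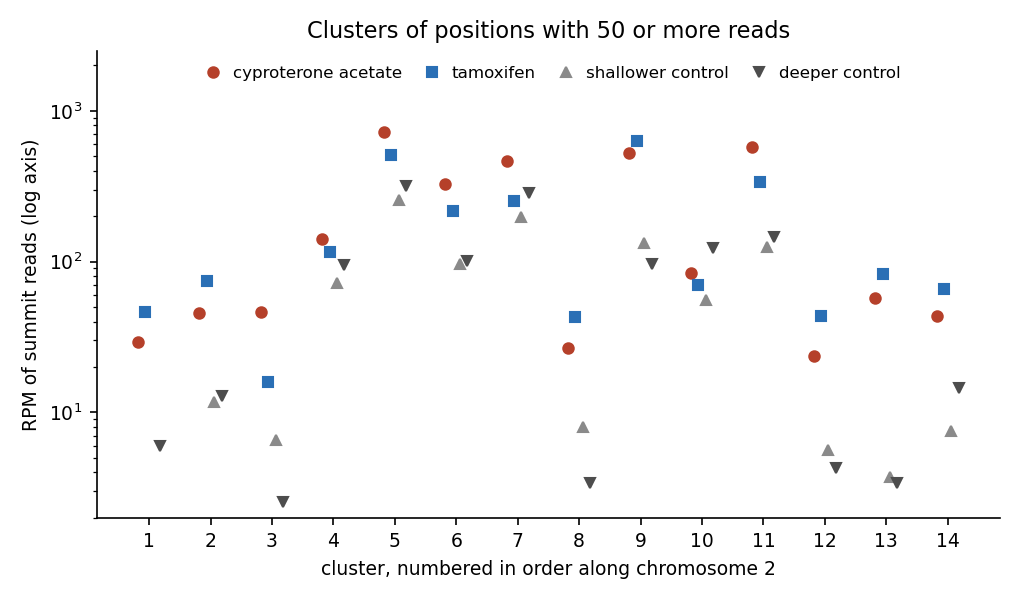
Summit RPM (log axis; RPM) in the 14 clusters of positions with 50 or more reads, numbered in order along chromosome 2, for cyproterone acetate, tamoxifen and both controls; a library at 0 is not drawn. Cyproterone acetate is the highest in clusters 3 to 7 and 11, and tamoxifen in clusters 1, 2, 8, 9 and 12 to 14. The clusters were chosen on drug reads alone.

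Matched single positions with the largest excess of scaled reads were named by rule. Those higher with cyproterone acetate were centred at chr2:156860792 (166 against 59.5 tamoxifen reads), chr2:160885672 (120.5 against 39) and chr2:49365257 (127.5 against 57.5), all in the clusters above, and at chr2:197138402 (67 against 11) and chr2:6095487 (72 against 21). Their log2 ratios ran from 0.90 to 2.35. The controls held 38.5 and 56.5 reads at chr2:160885672, so the tamoxifen library was not above them there, and 5.5 and 6.5 at chr2:197138402.

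Those higher with tamoxifen had log2 ratios from -0.30 to -2.25. The position at chr2:1384037 held 71.5 cyproterone acetate and 97 tamoxifen reads, a log2 ratio of -0.69 (-1.15 to -0.24), inside the window from chr2:1300001 that was higher with cyproterone acetate as a whole. The position at chr2:193572917 held 166.5 and 171.5 reads, the most of each library on the chromosome, and its counting interval (-0.61 to 0.02) reached 0. At chr2:257425252 there were 18.5 and 44.5 reads, at chr2:199381432 68 and 86, and at chr2:121978722 9 and 36, with the lowest log2 ratio of the 5, -2.25 (-3.49 to -1.17).

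Positions could also be chosen on the controls, which neither drug's reads enter. Reads of each drug were summed within 100 bp of every position of the control table, so a read can be counted at more than 1 position. Around the 101425 positions with 5 to under 10 control reads the summed log2 ratio of cyproterone acetate over tamoxifen was -0.22, and around the 5289 with 10 to under 20 it was -0.24. Around the 458891 with 2 to under 5 control reads, the largest class, it was -0.07, and around the 302963 with under 2 it was 0.05. Around the 230 with 20 or more it was 0.12, yet cyproterone acetate had the larger share at 114 of them and tamoxifen at 116, so a few very strong positions carried that sum. The control pair itself differed between these classes, from -0.33 under 2 reads to 0.47 at 10 to under 20, with the same reads used to form the classes.

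Fuzziness, the spread of reads about a position as scored by the authors, differed by no more than its fixed offset between libraries. A position with a single isolated read has a fixed score, 39.1 with cyproterone acetate and 38.2 with tamoxifen, a log2 ratio of 0.03. At 3214 matched positions with the same number of reads, 3 or more, in both libraries the median score was 44.5 with cyproterone acetate and 43.7 with tamoxifen, and the median log2 ratio was 0.03 with quartiles of -0.17 and 0.25. The score was higher with cyproterone acetate at 54.4% of them. The median size of the log2 ratio was 0.21. In the authors' deposited table of the controls the median log2 fuzziness ratio over 8012 positions at which both controls had the same number of reads, at least 3, was 0.03 and its median size 0.23. At the 649 positions strong in both drugs the median scores were 44.6 and 44.2.

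Summits of matched positions lay close together. With 3 reads or more in both libraries (11912 positions) the median distance was 10 bp, 23.2% had the same summit and 70.7% were within 10 bp. The matching on centres bounds this distance, so it is a description. In the authors' deposited table of the controls, whose positions were called jointly without that bound, the median distance at the same read minimum was 30 bp.

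The X chromosome was read in the same way for comparison. For every 100 summit reads on chromosome 2, the cyproterone acetate library had 30.2 on X, the tamoxifen library 27.6, the shallower control 29.3 and the deeper 28.8. Cyproterone acetate was thus above and tamoxifen below both controls, by a difference between the drugs that is wider than that between the controls. Of 1549 windows of 100 kb on X, 42 (2.71%) were at least 25% higher with cyproterone acetate and 30 (1.94%) with tamoxifen, after each library was scaled to its total on X. The control pair had more in each direction, 47 (3.03%) toward the shallower and 54 (3.49%) toward the deeper. The SD was 0.162 over windows, against 0.175 for the control pair, with fewer reads in a window than on chromosome 2 (medians of 305 with cyproterone acetate and 228 with tamoxifen). The tails were thus nearer to equal on X than on chromosome 2, a difference that was not tested.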

How the data were processed

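Position tables of chromosomes 2 and X were deposited for each drug against both controls pooled, and for the controls against each other. The submitters' processing notes name Bowtie2, SAMtools 1.4 and build rn6. The position caller was not given in these sources. Per the file headers, the values deposited are summit occupancy, a scaled coverage signal, a fuzziness score, and for the controls a log2 ratio of fuzziness and a summit distance. In the drug tables the side headed control has 1 step size and the other side 2, with the ratio of the controls' steps, so the side headed control was read as the drug's library. There are 28 more columns of per-side values, which stayed unused.

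The commonest value above 0 was taken as 1 read (6.37 with cyproterone acetate and 7.13 with tamoxifen on chromosome 2), and 100% of values fell on steps of 0.5 reads within 2% of a step. Centres were matched as mutual nearest neighbours. A pseudocount of 0.5 reads was added in windows. Windows named are the 8 highest and 8 lowest ratios, and the 4 highest and 4 lowest with at most 3 reads a position; positions named are the 5 largest excesses each way with 10 reads or more in either library. Members and lists were chosen with earlier results of these data known. No genome or annotation of rn6 was used, so windows carry no gene names or sequences and the planned gene lists were not used. The scripts were tested on simulated data (Python 3.11.15, numpy 2.4.6, pandas 2.3.3, scipy 1.17.1).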

Additional observations from a re-analysis of the deposited data

How the results depend on the processing

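The alternatives were set beside the values of the report; the causes of shifts were not tested, apart from those that follow from fewer reads or positions. Matched positions made up 13.1%, 42.7% and 69.0% of the positions called for cyproterone acetate at tolerances of 0, 20 and 50 bp. Of those called for tamoxifen they made up 14.1%, 46.3% and 74.7%. The share at least 2-fold higher with cyproterone acetate was 12.8% at tolerances of 0 and 50 bp, 28.6% with equal medians, 16.5% with 3 reads or more in both libraries together and 14.9% with 10 or more. The share higher with tamoxifen was 24.4% at a tolerance of 0 bp, 23.5% with equal medians, 29.9% with 3 reads or more and 15.2% with 10 or more.

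The window SD was 0.156, 0.102 and 0.067 in windows of 50 kb, 200 kb and 1 Mb, 0.116 with at most 3 reads a position, 0.219 over matched positions, 0.121 minus the pool between the tables, 0.182 with no minimum, 0.118 with at least 300 reads and 0.110 with both the limit of 3 and at least 300 reads, the last chosen after seeing the data. Windows higher with cyproterone acetate numbered 147, 10 and 1 in windows of 50 kb, 200 kb and 1 Mb, 148 over matched positions, 55 with no minimum, 17 with at least 300 reads and 10 with that minimum and the limit. Windows higher with tamoxifen numbered 79, 1 and 0 in the 3 window sizes, 1 with the limit, 152 over matched positions, 3 minus the pool between the tables, 19 with no minimum and 1 with the limit and at least 300 reads.

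The share of strong cyproterone acetate positions also strong with tamoxifen was 7.33% at 5 reads or more, 48.0% at 20 or more and 41.8% within 50 bp, a tolerance chosen after seeing the data, and the reverse share was 10.2% at 5 reads or more and 55.9% within 50 bp. No log2 ratio among these results changed sign. Of 90 alternatives of the 18 named windows, 81 stayed within the counting interval and 9 moved. No paired analysis was possible because each drug has 1 library, and for the same reason no library could be left out.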
